A study of Mus musculus with 16 samples.

Results

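The genes described here are 35 genes that fold, modify, translocate or degrade proteins at the endoplasmic reticulum (ER) of the mouse liver, or that regulate these tasks. They were taken by gene symbol from a gene count table, and all 35 of 35 were found among the 53714 genes counted and passed the filter on low counts that 13905 genes passed. By role they comprise 11 chaperones and co-factors, 4 protein disulfide isomerases, 3 regulators of the unfolded protein response (UPR), 8 genes of ER-associated degradation (ERAD) and 9 genes of the translocation machinery.

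Livers came from male mice aged 9 weeks of the strain C57BL/6 Slc25a47tm1c(EUCOMM)Hmgu, in 4 groups of 4. These were fasted Slc25a47hep-/- mice and fasted Slc25a47hep+/+ mice, both after an overnight fast, and fed Slc25a47hep-/- mice and fed Slc25a47hep+/+ mice, both on chow. The first genotype is called KO and the second WT. Slc25a47 encodes a mitochondrial carrier protein found mainly in liver. All 4 groups carry the strain label with the tm1c allele, which is a conditional (floxed) allele, and the hep in the genotype label was read as hepatocyte; the Cre driver is not given in the sources used here, and whole liver holds other cells that may keep the gene. RNA was made into stranded poly(A) libraries from whole liver, so that in these bulk data fewer cells of a type and less RNA per cell cannot be told apart. Each library is labelled as a separate sample; that each is a separate mouse is taken from these labels.

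Secreted and membrane proteins enter the ER through the SEC61 channel, helped by the TRAP complex, and lose their signal peptide to the signal peptidase complex. Inside, HSP70- and HSP90-type chaperones, the lectin chaperones calreticulin and calnexin, and disulfide isomerases fold them, and proteins that fail are returned to the cytosol by ERAD. When unfolded proteins accumulate, the UPR sensors IRE1 (encoded by Ern1), ATF6 and PERK (Eif2ak3) raise the expression of folding and ERAD genes, in part through the transcription factors XBP1 and ATF6 acting on ER stress elements. Hepatocytes export most plasma proteins and are rich in ER.

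Promoter sequence was available for 29 of the 35 genes, and it is shown because 7 of the 11 chaperone genes hold an ER stress element in it, in either of the forms given below. Of the other 4, Sdf2l1 and Dnajb9 held no match and Manf and Hyou1 had no window. The element searched on both strands was CCAAT, 9 bases of any kind, then CCACG, and a second form was ATTGG, 1 base, then CCACG. The first form stood within 250 bases before to 50 bases after the RefSeq start of 9 of the 29 genes (31.0%), against 37 of 27025 genes with a promoter in the same RefSeq table (0.137%). The second form stood in Herpud1 and Dnajb11, or 6.90% of the 29, against 0.0444% of all promoters. Together 11 of 29 genes held either form (37.9%), against 0.181% of all promoters. These elements were looked for because the UPR is known to act through them on such genes, and the 27025 genes include the 29. The shares therefore describe the group and are not a test. A further motif, TGACGTG, the core of an ATF6 site, was found in 1 of the 29 genes, Hspa5, or 3.45% against 2.22% of all promoters. A match describes letters and is not a binding site. The 2 windows below are Hspa5 (GRCm38.p6, chr2:34771840-34772139, forward strand) and Calr (chr8:84846882-84847181, reverse strand), each read along the gene; capitals mark the element, which in Calr lies in the opposite direction, and in Hspa5 also the ATF6-site core. Sequences are from RefSeq.
Hspa5: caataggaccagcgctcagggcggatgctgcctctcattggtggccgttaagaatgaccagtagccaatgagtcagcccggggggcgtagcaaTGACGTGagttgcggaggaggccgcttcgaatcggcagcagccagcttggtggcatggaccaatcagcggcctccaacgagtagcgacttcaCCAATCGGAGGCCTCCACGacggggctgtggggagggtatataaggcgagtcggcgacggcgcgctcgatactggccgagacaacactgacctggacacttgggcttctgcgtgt
Calr: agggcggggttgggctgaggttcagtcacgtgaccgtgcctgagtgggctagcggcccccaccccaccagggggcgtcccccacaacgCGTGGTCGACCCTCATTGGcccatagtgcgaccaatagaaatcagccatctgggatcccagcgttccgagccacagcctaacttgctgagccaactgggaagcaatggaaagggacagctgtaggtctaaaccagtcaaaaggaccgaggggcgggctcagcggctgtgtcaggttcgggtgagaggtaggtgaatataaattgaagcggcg

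Set in the direction of the element, the matches of all 11 genes read as follows, with the fixed ends in capitals and the place and strand of the element on GRCm38.p6; the last 2 lines are the second form.
Hspa5, chr2:34772025-34772043, forward strand: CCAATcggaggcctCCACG
Calr, chr8:84847075-84847093, forward strand: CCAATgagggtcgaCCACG
Canx, chr11:50325800-50325818, reverse strand: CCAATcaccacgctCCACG
Creld2, chr15:88819520-88819538, reverse strand: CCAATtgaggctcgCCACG
Derl3, chr10:75893242-75893260, reverse strand: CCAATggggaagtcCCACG
Dnajc3, chr14:118937827-118937845, forward strand: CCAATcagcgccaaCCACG
Hsp90b1, chr10:86705533-86705551, forward strand: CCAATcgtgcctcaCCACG
Hsp90b1 second copy, chr10:86705638-86705656, reverse strand: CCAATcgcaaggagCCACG
Pdia6, chr12:17266491-17266509, forward strand: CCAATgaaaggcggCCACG
Syvn1, chr19:6046532-6046550, forward strand: CCAATcggcggtagCCACG
Dnajb11, chr16:22857852-22857862, forward strand: ATTGGcCCACG
Herpud1, chr8:94386377-94386387, forward strand: ATTGGgCCACG
The 9 bases between the fixed ends differ from gene to gene. In Hsp90b1 the element stood in 2 copies in opposite directions. The matches lay before the start site in every gene but Dnajb11, where the match lay just after it.

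**Figure D1:**
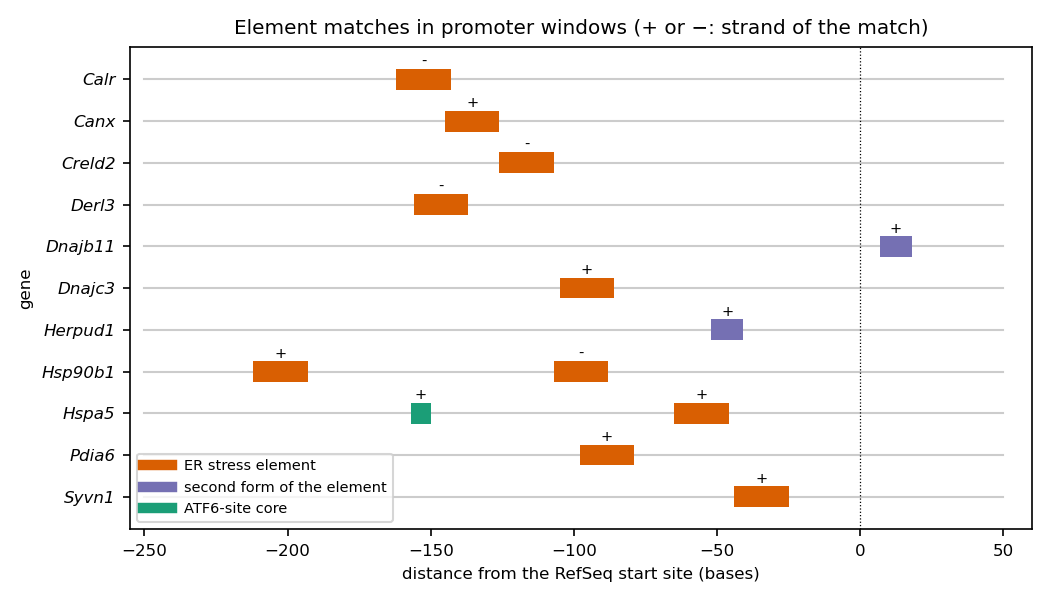
Position of the element matches in the promoter windows of the 11 genes with a match; the x axis is the distance from the RefSeq start site in bases, the y axis lists the genes, and + or − above a box is the strand of the match relative to the gene. Boxes of the 9 genes with the first form lie before the start site, and Hsp90b1 carries 2 of them.

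The libraries held 19.6 to 27.3 M reads assigned to genes. The level of a gene is given in CPM, its read count as a share of the library after TMM scaling, which corrects for differences in library composition. Slc25a47 itself had 331, 315, 237 and 163 CPM in the fasted KO livers, against 914, 1139, 889.5 and 855 CPM in the fasted WT livers. In the fed state it had 81.8, 123, 153 and 146 CPM in KO livers and 461, 621.5, 628 and 836 CPM in WT livers, so that KO and WT did not overlap in either state. The sum of 10 hepatocyte markers was 105110 to 154770 CPM in the 16 libraries. Pancreatic acinar transcripts were present in some livers: 21 such genes summed to 84.7, 5.23, 5.43 and 5.63 CPM in fasted KO replicates 1 to 4, against 8.12, 1976, 46.2 and 545 CPM in fasted WT replicates 1 to 4. The fed livers had 8.35 to 25.4 CPM in KO and 24.9 to 32.5 CPM in WT, of which Cela1 gave 24.5 to 31.8 CPM in fed WT. All 21 genes were detected in fasted WT replicates 2, 3 and 4, while Cpb1, Prss2 and Pnlip were at 0 in fasted WT replicate 1 and in the 4 fed WT livers. Pancreatic acinar cells are themselves rich in ER, so counts of the 35 genes that use the fasted WT group, and many of the fold changes, are also given without its replicates 2 and 4; the part of pancreatic RNA in the results was not tested. In 25 of the 35 genes both of these replicates were above both others of their group, and in 0 genes both were below. The median ratio of their mean to that of the others was 1.14 over the 35 genes. Replicate 4 was higher than replicate 2 in 23 of the 35 genes. The same counts and ratio over all genes were not computed, so whether this shift is particular to the 35 genes was not tested. Plasma cell markers, a list that holds Derl3, were also higher in these replicates, at a sum of 33.7 and 36.4 CPM, against 14.7 and 11.8 CPM in replicates 1 and 3. The immunoglobulin gene Igkc had 11.1 and 10.4 CPM, against 3.61 and 3.53 CPM.

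**Figure D2:**
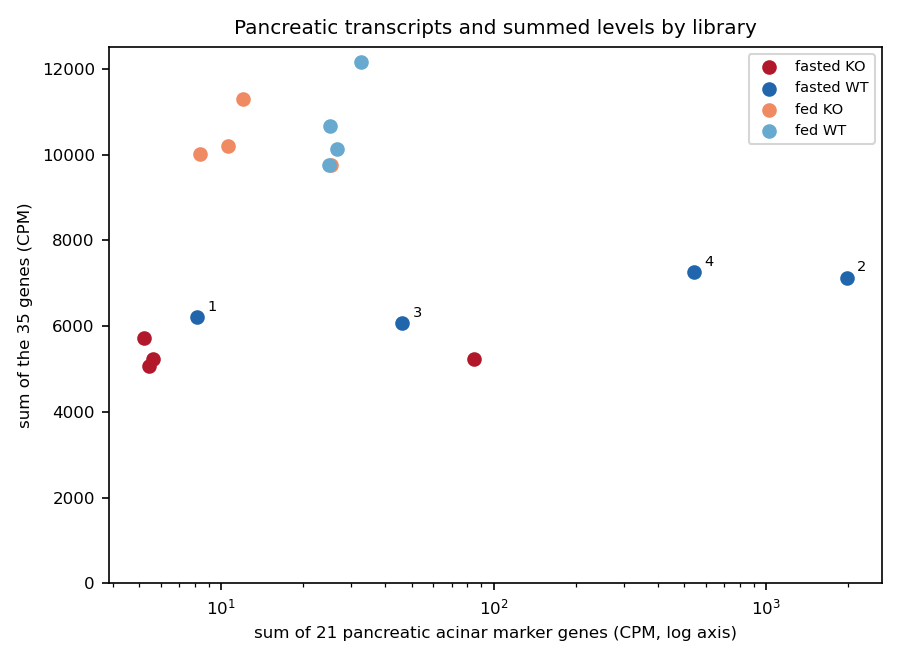
Summed level of the 35 genes (CPM, y axis) against the summed level of 21 pancreatic acinar marker genes (CPM, log x axis) in each of the 16 libraries; numbers mark the replicates of the fasted WT group. The 8 fasted libraries lie below the 8 fed ones, and fasted WT replicates 2 and 4 lie far to the right at 1976 and 545 CPM.

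Per kilobase of exon, the levels of the 35 genes differed widely: P4hb was highest at a mean of 528 CPM per kb over the 16 libraries, followed by Hsp90b1 (229), Calr (223), Hspa5 (218) and Herpud1 (168). Derl3 and Sec61g were lowest at 1.57 and 0.416 CPM per kb. Counts of Sec61g were only 11 to 43 reads per library and those of Derl3 8 to 307, so counting error weighs more on these 2 genes than on the others. Reads that align to several places stood outside the gene counts, in a line that held 32.2% to 34.8% of all counts in fasted KO and 40.4% to 45.7% in fasted WT libraries. In the fed state it held 32.0% to 39.3% in KO and 41.5% to 45.8% in WT libraries. This share was thus lower in every KO library than in every WT library, and its part in the genotype comparisons was not tested. Exons of Hsp90b1, Manf and Pdia4 overlap another gene on the same strand, and those of Derl2, Dnajb9, Hsp90b1, Manf, Pdia3, Pdia6, Sec61a1, Spcs1, Ssr2 and Syvn1 one on the other strand, by 14 bases in Dnajb9 to 549 in Sec61a1.

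Overnight fasting lowered nearly the whole group in both genotypes. In KO livers 31 of the 35 genes were lower after fasting and 0 higher, against 20.3% lower and 21.1% higher among all genes tested. In WT livers 33 genes were lower and 0 higher, against 18.3% and 16.2% of all genes. The median log2 fold change of the 35 genes was −1.01 in KO and −0.83 in WT livers, beside −0.00 and −0.02 over all genes. Together the 35 genes took 0.523% to 0.599% of gene reads in fasted KO and 0.548% to 0.670% in fasted WT livers, against 1.05% to 1.23% in fed KO and 0.943% to 1.11% in fed WT livers.

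Calls are by edgeR's quasi-likelihood F test at a Benjamini-Hochberg adjusted p under 0.05 over the 13905 genes; by the DESeq2 Wald test, and at an unadjusted p under 0.05 in either tool, 0 of the 35 genes were higher after fasting in either genotype as well. Fasted and fed values did not overlap for 31 genes in KO livers (38.2% of all genes) and for 30 in WT livers (32.8% of all genes). The KO and WT fasting comparisons share no library, though their spread was estimated in 1 model. All 31 genes lower in KO were among the 33 lower in WT, which is 100% of one list and 93.9% of the other. As nearly all of the 35 genes were called in each, most of this overlap was fixed in advance, and no conclusion is drawn from it. Exceptions in both genotypes were Derl1 and Herpud1; Atf6 and Spcs1 were called lower in WT livers and not in KO livers. Without fasted WT replicates 2 and 4, 30 genes were lower in WT livers and 0 higher, against 14.9% and 13.9% of all genes, and the median was −0.94; Herpud1 was then among those lower, and Atf6, P4hb, Sec61g and Spcs1 were not.

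**Figure D3:**
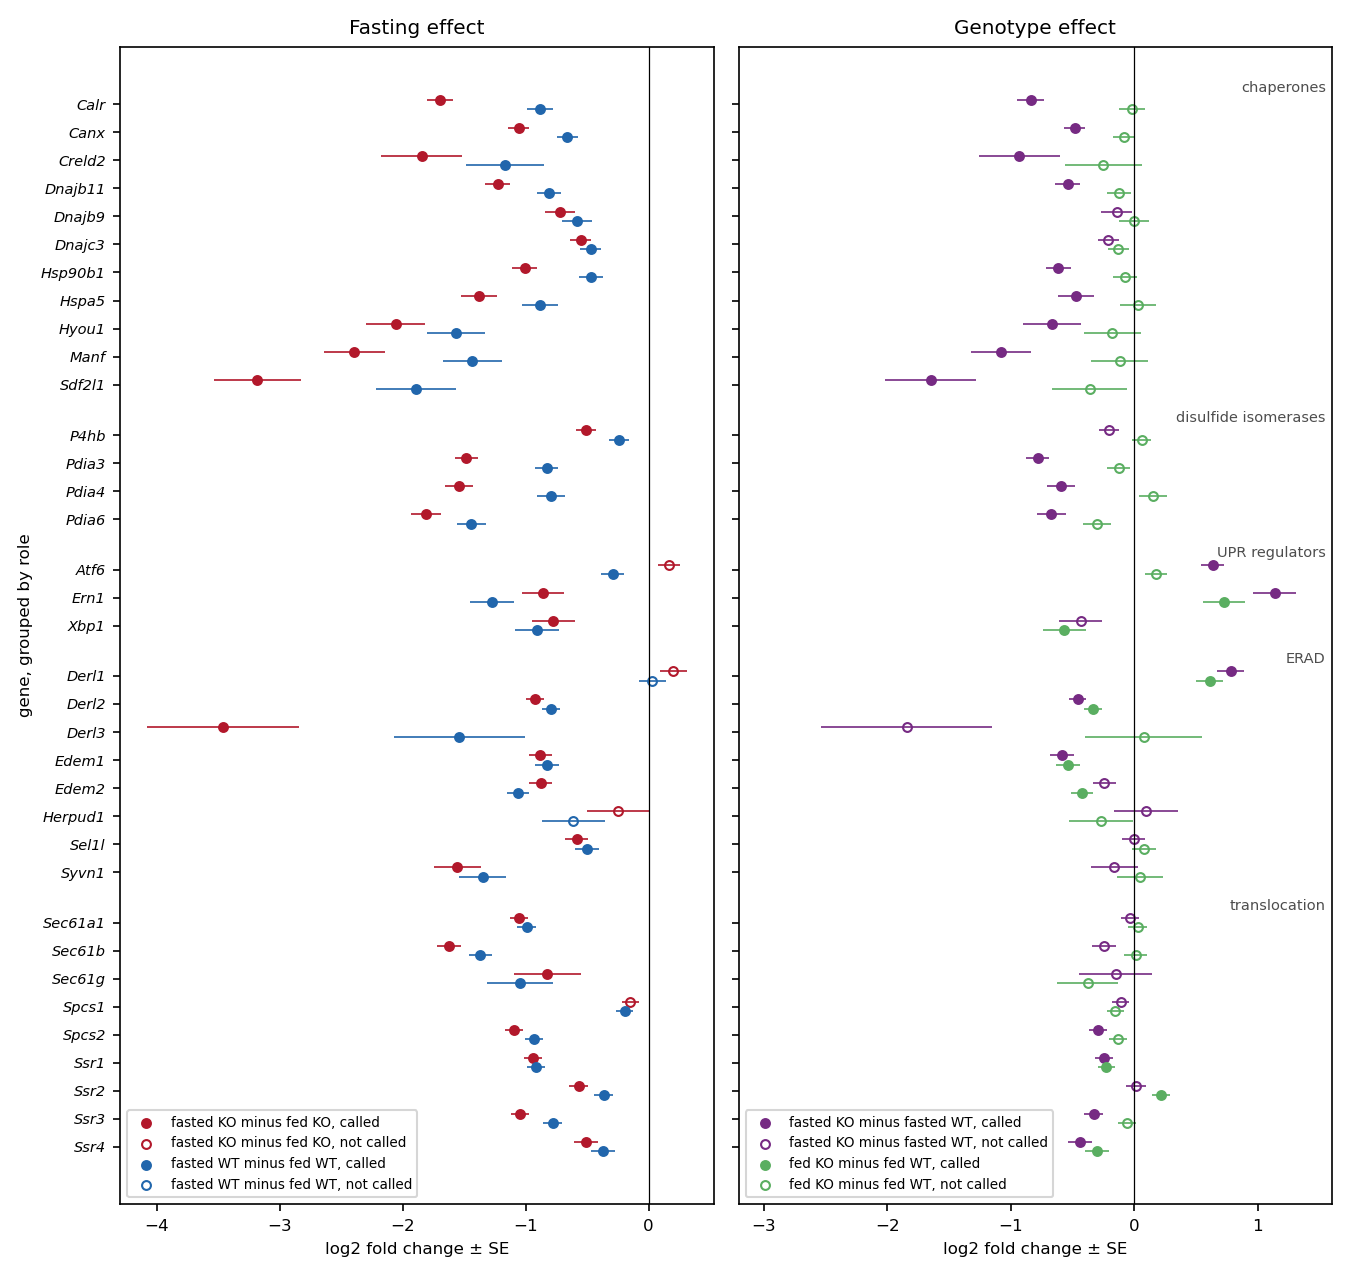
Log2 fold change ± SE of the 35 genes, grouped by role from top to bottom; the left panel shows fasting in KO and in WT livers and the right panel the genotype in the fasted and in the fed state, with filled points for called genes. In the left panel nearly all points lie left of 0, and in the right panel chaperones and disulfide isomerases lie left of 0 in the fasted state and near 0 in the fed state, while Ern1 and Derl1 lie right of 0 in both.

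Between genotypes fewer of the genes differed than between feeding states. In fasted KO livers 18 of the 35 genes were lower and 3 higher than in fasted WT livers, against 14.5% lower and 13.8% higher among all genes, with a median log2 fold change of −0.33 beside 0.01 over all genes. The lower ones were mainly folding genes, 9 of 11 chaperones and 3 of 4 disulfide isomerases, together with 2 of 8 ERAD and 4 of 9 translocation genes. The 3 higher ones were the UPR sensors Ern1 and Atf6 and the ERAD gene Derl1. Fasted KO and fasted WT values did not overlap for 20 genes, against 29.5% of all genes.

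Without fasted WT replicates 2 and 4 the fasted comparison gave 12 genes lower and 4 higher, against 11.8% and 11.2% of all genes, and the median was −0.29. The 12 were all among the 18, and the 4 were the same 3 plus Herpud1. Of the chaperones 4 were then still called lower (Calr, Canx, Hsp90b1 and Dnajb11), and the 3 disulfide isomerases were all kept. The 6 calls lost were those of Hspa5, Hyou1, Sdf2l1, Manf, Creld2 and Spcs2, whose fold changes all became smaller. With 1 library left out at a time, 15 to 20 genes were called lower, 14 of the 18 in every such refit.

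**Figure D4:**
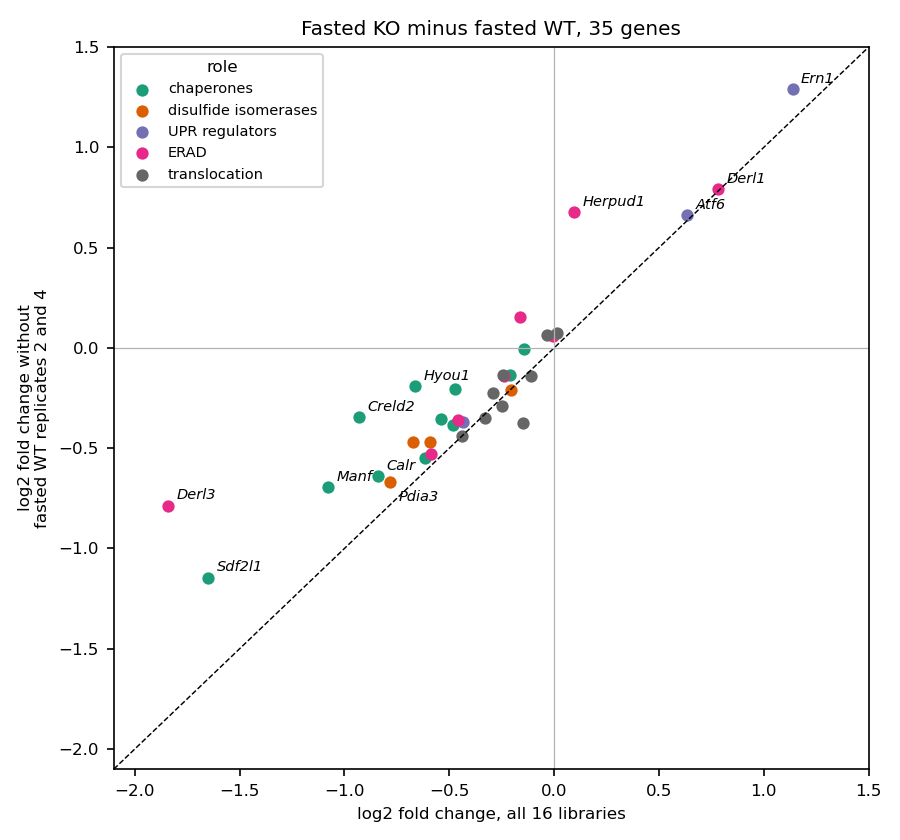
Log2 fold change of each of the 35 genes in fasted KO against fasted WT livers, with all 16 libraries (x axis) and without fasted WT replicates 2 and 4 (y axis); colours are roles and the dashed line marks equal values. Derl3, Sdf2l1, Creld2, Hyou1 and Manf lie above the line, closer to 0 on the y axis. Herpud1 also lies above it but further from 0, at 0.10 on the x axis and 0.68 on the y axis. Calr moved by 0.20 and Ern1 by 0.15, while Pdia3, Atf6 and Derl1 lie nearer the line.

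In the fed state 6 of the 35 genes were lower in KO than in WT livers and 3 higher, against 16.9% and 14% of all genes, which for the lower genes is close to the background, and the median was −0.12 beside −0.01 over all genes. Values did not overlap for 9 genes, against 28.4% of all genes. The lower ones were Edem1, Edem2, Derl2, Xbp1, Ssr1 and Ssr4, and the higher ones Derl1, Ern1 and Ssr2. Of the chaperones 0 of 11 and of the disulfide isomerases 0 of 4 were called. At an unadjusted p under 0.05 by edgeR there were 0 and 1, against 5782 of 13905 genes. When libraries were scaled by their totals alone, the median over all genes rose to 0.22 and that of the 35 genes to 0.11, with 9 genes higher and 1 lower, so the direction of the fed median depended on the scaling. The lower call that remained was that of Edem1, and Pdia4, P4hb, Atf6, Sel1l, Sec61a1 and Sec61b joined the higher ones. In the fasted comparison the same scaling gave medians of 0.20 over all genes and −0.14 over the 35, with 12 genes lower and 3 higher. The shares of all genes called with library totals are not given here, so the fed and fasted counts under that scaling have no background beside them. With library totals Hspa5, Hyou1, Creld2, Ssr1, Ssr3 and Spcs2 were not called in the fasted comparison. The fed and the fasted genotype comparisons share no library, though their spread was estimated in 1 model. Derl2, Edem1, Ssr1 and Ssr4 were lower in both, which is 66.7% of the 6 and 22.2% of the 18. Derl1 and Ern1 were higher in both. The same overlap over all genes was not computed.

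The most abundant chaperones are the HSP70-type Hspa5 (BiP), the HSP90-type Hsp90b1 (GRP94) and the lectin chaperone calreticulin, Calr. Hspa5 (ENSMUSG00000026864, GRCm38 chromosome 2, 34771970 to 34777547, forward strand) had 425, 548, 480.3 and 501 CPM in fasted KO livers, against 586, 729.9, 543 and 854 CPM in fasted WT livers. In fed livers it had 1299.6, 1578, 1125 and 1088 CPM in KO and 1242, 1497, 1093 and 1158 CPM in WT. Every fasted liver was below every fed one, the fed genotypes overlapped throughout, and the highest fasted KO liver was just above the lowest fasted WT liver. The log2 fold change with fasting was −1.38 ± 0.15 (SE) in KO and −0.88 ± 0.15 in WT livers (edgeR adjusted p = 1.36e-06 and 0.000155). Between fasted genotypes it was −0.47 ± 0.15 (adjusted p = 0.0213), a call lost without fasted KO replicate 1 (adjusted p = 0.0502), fasted WT replicate 2 (0.0578) or fasted WT replicate 4 (0.0792), and without both fasted WT replicates 2 and 4 it was −0.21 (adjusted p = 0.348). The call was also lost with no filter on low counts (adjusted p = 0.059) and with library totals (−0.29, adjusted p = 0.141). Fasting changed Hspa5 in WT livers by −1.14 without the 2 replicates.

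Calr (ENSMUSG00000003814, chromosome 8, 84841850 to 84846934, reverse strand) had 256, 299, 260.0 and 289 CPM in fasted KO livers, against 422, 581, 438 and 535 CPM in fasted WT livers. The fed livers had 964, 913, 826 and 879 CPM in KO and 971, 1019.6, 786 and 859 CPM in WT. Fasted KO lay below fasted WT with no overlap, while the fed genotypes overlapped. Calr was lower in fasted KO than in fasted WT livers by a log2 fold change of −0.84 ± 0.11 (edgeR adjusted p = 1.37e-05), and by −0.64 without the 2 replicates (adjusted p = 0.000671). Fasting lowered it by −1.70 ± 0.11 in KO and −0.88 ± 0.11 in WT livers, and by −1.08 in WT livers without the 2 replicates.

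Hsp90b1 followed the same order, with 519 to 605 CPM in fasted KO and 774 to 889 CPM in fasted WT livers, and 995 to 1219 CPM in fed KO and 999 to 1451 CPM in fed WT livers. Its fasted genotype difference was −0.61 ± 0.10 (edgeR adjusted p = 0.000174) and −0.55 without the 2 fasted WT replicates. Canx, the membrane-bound partner of calreticulin, and Dnajb11, an HSP40-type helper of BiP, were lower in fasted KO livers by −0.48 and −0.54, and by −0.39 and −0.35 without those replicates. The other 2 HSP40-type helpers, Dnajb9 and Dnajc3, were not called between genotypes by edgeR's test (Dnajc3 fasted −0.21, adjusted p = 0.0788, and 0.0461 by the DESeq2 Wald test). Dnajb9 had 45.03, 53.0, 46.1 and 48.7 CPM in fasted KO livers and 52.8, 55.2, 44.0 and 61.1 CPM in fasted WT livers; in the fed state KO livers had 69.6, 106, 75.7 and 67.2 CPM and WT livers 80.3, 74.5, 77.5 and 87.0 CPM. Fasted and fed livers did not overlap for Dnajb9 (−0.72 ± 0.12 with fasting in KO and −0.58 ± 0.12 in WT livers), while the genotypes overlapped in both states.

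Between fasted genotypes the largest fold changes among the chaperones were those of Sdf2l1, Manf and Creld2, all less abundant than Hspa5, Hsp90b1 and Calr. Sdf2l1, a partner of DNAJB11 in the BiP cycle, had 3.32, 4.46, 2.46 and 2.10 CPM in fasted KO livers, against 7.32, 11.03, 6.34 and 14.1 CPM in fasted WT livers. In the fed state it had 26.1, 43.2, 23.0 and 19.4 CPM in KO and 38.9, 48.7, 26.6 and 29.4 CPM in WT livers. The 4 fasted KO livers were the lowest of all 16, and fasted WT replicates 2 and 4 were the highest of the fasted livers. With fasting Sdf2l1 fell by 3.18 on the log2 scale in KO and by 1.89 in WT livers (SE 0.36 and 0.32), and by 2.40 in WT livers without those replicates. Between fasted genotypes it differed by −1.65 ± 0.37 (edgeR adjusted p = 0.00437), and by −1.15 without the 2 replicates, which was not called (adjusted p = 0.0669).

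Creld2, an ER-resident protein induced by ER stress, had 15.1, 20.1, 14.3 and 13.8 CPM in fasted KO livers and 19.4, 34.0, 20.7 and 46.6 CPM in fasted WT livers. The fed livers had 53.3, 88.7, 50.6 and 34.6 CPM in KO and 59.98, 89.95, 59.1 and 61.2 CPM in WT. Fasted genotypes overlapped, and fasting separated the livers of each genotype (−1.85 ± 0.33 in KO, −1.17 ± 0.32 in WT, and −1.75 in WT without fasted WT replicates 2 and 4). The fasted genotype differences of Creld2 and of Hyou1, a large HSP70-type chaperone, were −0.93 ± 0.33 and −0.66 ± 0.23 (edgeR adjusted p = 0.0498 and 0.0478), and both calls were lost in 10 of 16 refits that left out 1 library. Those libraries were fasted KO replicates 1, 3 and 4, fasted WT replicates 2 and 4, fed KO replicates 1 and 3, and fed WT replicates 1, 3 and 4 (adjusted p = 0.0607 to 0.152 for Creld2 and 0.0544 to 0.145 for Hyou1). Other losses of both calls came with library totals, with no filter on low counts and with the 8 fasted libraries alone (0.0625 to 0.098 for Creld2 and 0.101 to 0.13 for Hyou1). Without fasted WT replicates 2 and 4 the differences were −0.34 and −0.19 (adjusted p = 0.492 and 0.539). Manf, a secreted BiP co-factor, was lower by −1.08 ± 0.24 (adjusted p = 0.00432) and by −0.69 without them (adjusted p = 0.0595).

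**Figure D5:**
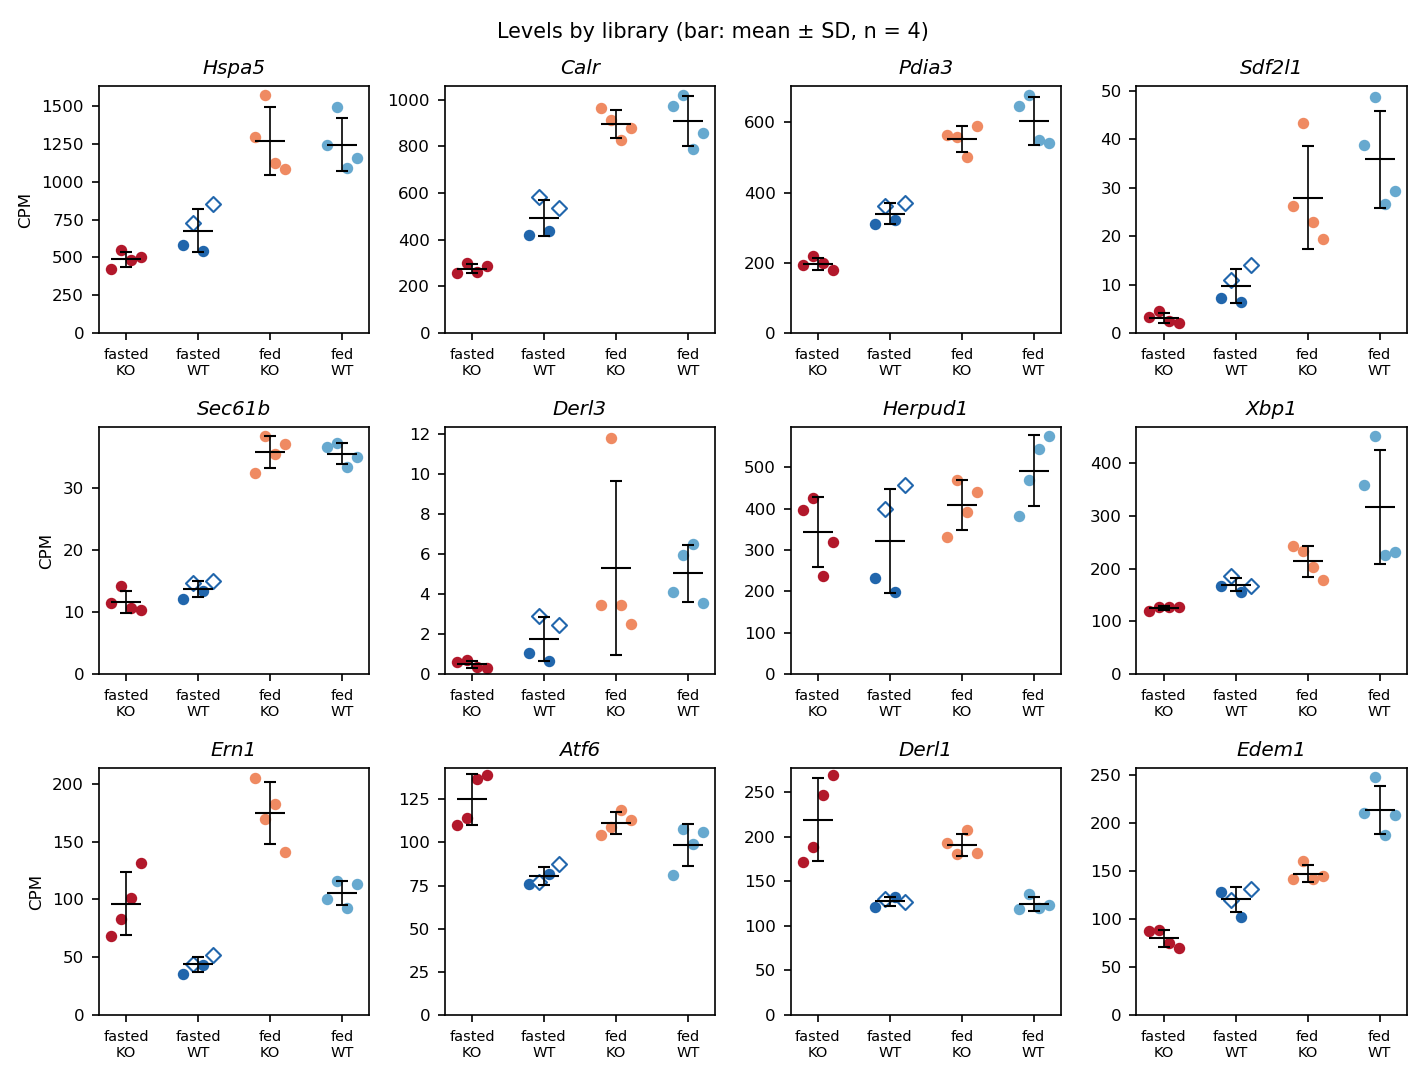
CPM of 12 of the 35 genes in every library, by group (fasted KO, fasted WT, fed KO, fed WT); bars are the mean ± SD (n = 4), and open diamonds are fasted WT replicates 2 and 4. Calr and Pdia3 are lower in fasted KO than in fasted WT livers with and without the diamonds. For Calr, Pdia3, Derl3 and Herpud1 alike the diamonds set the top of the fasted WT group. Their mean over that of the other fasted WT livers was 1.299 for Calr, 1.159 for Pdia3, 3.163 for Derl3 and 1.987 for Herpud1.

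The disulfide isomerases form and rearrange disulfide bonds; Pdia3 (ERp57) works with calreticulin and calnexin. Pdia3 (ENSMUSG00000027248, chromosome 2, 121413775 to 121438687, forward strand) had 192, 221, 198 and 180.0 CPM in fasted KO livers, against 309, 361, 321 and 369.5 CPM in fasted WT livers. The fed values were 565, 558, 501 and 588 CPM in KO and 645, 678, 548 and 542 CPM in WT. Fasted KO was separate from fasted WT, and fed values overlapped. The fasted genotype difference of −0.78 ± 0.09 had the smallest p of the 35 genes (edgeR adjusted p = 6.69e-06) and was −0.67 without fasted WT replicates 2 and 4 (adjusted p = 0.000481). With fasting it changed by −1.48 ± 0.09 in KO and −0.83 ± 0.09 in WT livers.

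Pdia4 had 125, 134, 111 and 112 CPM in fasted KO livers and 176, 195, 157 and 199.7 CPM in fasted WT livers, against 353, 432, 315 and 305 CPM in fed KO livers and 331, 363, 285 and 285 CPM in fed WT livers. Pdia6 had 86.8, 108, 85.3 and 74.4 CPM in fasted KO livers and 118, 154, 127 and 165 CPM in fasted WT livers, with 299, 326, 299 and 317 CPM in fed KO livers and 382, 451, 355 and 342 CPM in fed WT livers. For both genes fasted KO lay below fasted WT without overlap; in the fed state the genotypes overlapped for Pdia4 and did not for Pdia6. The fasted genotype differences were −0.59 ± 0.11 and −0.67 ± 0.12 (edgeR adjusted p = 0.000675 and 0.000335), and −0.47 for both without the 2 fasted WT replicates (adjusted p = 0.0203 and 0.0138). In fed livers Pdia6 differed by −0.30 ± 0.12, which did not pass the threshold (adjusted p = 0.0557). It passed without fasted WT replicates 2 and 4, with the replicate block, with the 8 fed libraries alone, with no filter on low counts and in 5 of 16 refits that left out 1 library (adjusted p = 0.0313 to 0.0494). P4hb, the most abundant isomerase per kilobase, was called with fasting (−0.51 ± 0.08 in KO, −0.24 ± 0.08 in WT livers) and not between genotypes. Its fasted genotype difference of −0.21 (adjusted p = 0.06) was called with DESeq2 size factors and by the DESeq2 Wald test (adjusted p = 0.0438 and 0.0153). Its WT call was lost without fasted WT replicate 3 or 4 or fed WT replicate 1 or 2 (adjusted p = 0.0553 to 0.0683) and was −0.24 with an adjusted p of 0.0854 without fasted WT replicates 2 and 4.

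Among the UPR regulators, the sensor genes Ern1 and Atf6 were higher in fasted KO livers. Ern1 was also higher in fed KO livers, where 0 of 11 chaperones were called. Ern1 (ENSMUSG00000020715, chromosome 11, 106394650 to 106487852, reverse strand), which encodes the kinase and RNase IRE1 that splices Xbp1 mRNA, had 68.2, 83.1, 102 and 132 CPM in fasted KO livers, against 35.7, 44.4, 43.0 and 51.7 CPM in fasted WT livers. Fed livers had 205, 169, 182 and 141 CPM in KO and 100.4, 116, 92.9 and 113 CPM in WT. All KO livers were above all WT livers of the same state, and all fasted livers were below all fed livers of the same genotype. The genotype difference was 1.14 ± 0.18 in the fasted state and 0.73 ± 0.17 in the fed state (edgeR adjusted p = 0.000217 and 0.00517), and both calls held in all 16 refits that left out 1 library; without fasted WT replicates 2 and 4 the fasted difference was 1.29. Fasting lowered Ern1 by −0.86 ± 0.17 in KO and −1.27 ± 0.18 in WT livers.

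Atf6 (ENSMUSG00000026663, chromosome 1, 170704674 to 170867771, reverse strand), the membrane-bound sensor that is cleaved into a transcription factor, had 110.1, 114, 137 and 139 CPM in fasted KO livers, against 75.8, 76.9, 82.0 and 87.2 CPM in fasted WT livers. The fed livers had 104, 109, 119 and 113 CPM in KO and 81.4, 108, 99.1 and 106 CPM in WT. Fasted KO lay above fasted WT without overlap (0.63 ± 0.09, edgeR adjusted p = 5.99e-05, and 0.66 without fasted WT replicates 2 and 4), whereas the fed genotypes overlapped (0.18 ± 0.09, adjusted p = 0.16). The fasting change was −0.29 ± 0.09 in WT livers (adjusted p = 0.0201), a call lost without fasted WT replicate 1 or 2 or fed WT replicate 2 or 4 (adjusted p = 0.0566 to 0.0649) and without fasted WT replicates 2 and 4 (0.0529). In KO livers it was 0.17 ± 0.09 (adjusted p = 0.156).

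Xbp1, the transcription factor made after IRE1 splices its mRNA, had 119, 127, 127 and 127 CPM in fasted KO livers, against 167, 185, 156 and 167 CPM in fasted WT livers. Its fed levels were 243, 233, 203 and 178 CPM in KO and 358, 452, 227 and 231 CPM in WT. Fasted KO was below fasted WT without overlap, although the difference of −0.43 ± 0.18 did not pass (edgeR adjusted p = 0.079). At about the same size it passed by the DESeq2 Wald test, with the replicate block, with the 8 fasted libraries alone (adjusted p = 0.0334, 0.0388 and 0.000702) and without fed WT replicate 2, 3 or 4 (0.0164 to 0.0471). Without the pair of fasted WT replicates 2 and 4 it was −0.37 (adjusted p = 0.27). The fed genotypes overlapped, with a difference of −0.57 ± 0.18 (adjusted p = 0.024) that was lost without fed KO replicate 3 or 4 or fed WT replicate 1 or 2 (adjusted p = 0.0628 to 0.073), with no filter on low counts (0.0598), with the 8 fed libraries alone (0.109) and with library totals (−0.33, 0.141). Gene counts do not separate spliced from unspliced Xbp1, so the activity of IRE1 was not measured.

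Among ERAD genes the 3 derlins, which line the retrotranslocation channel, went different ways. Derl1 (ENSMUSG00000022365, chromosome 15, 57869502 to 57892448, reverse strand) had 172, 189, 246 and 269 CPM in fasted KO livers, against 121, 129.7, 132 and 127 CPM in fasted WT livers. After feeding on chow the levels were 193, 180.1, 207 and 181 CPM in KO and 119, 136, 119.9 and 124 CPM in WT. Every KO liver was above every WT liver in both states, while fasted and fed livers of a genotype overlapped. The genotype difference was 0.78 ± 0.11 fasted and 0.61 ± 0.11 fed (edgeR adjusted p = 3.39e-05 and 0.000342), and 0.79 in the fasted state without fasted WT replicates 2 and 4. The change with fasting was 0.20 ± 0.11 in KO and 0.03 ± 0.11 in WT livers, not called in either; without fasted KO replicate 1 it was 0.28 in KO livers and called (adjusted p = 0.0271).

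Derl2 was lower in KO livers in both states. It had 42.3, 45.01, 41.1 and 39.9 CPM in fasted KO livers and 55.6, 62.9, 52.3 and 60.7 CPM in fasted WT livers, with 81.1, 75.8, 75.8 and 86.2 CPM in fed KO livers and 101, 102, 93.1 and 106 CPM in fed WT livers. None of the 4 groups overlapped, and the genotype difference was −0.46 ± 0.07 fasted and −0.33 ± 0.07 fed (edgeR adjusted p = 0.00011 and 0.00166); without fasted WT replicates 2 and 4 the fasted difference was −0.36, and with library totals the fed one was −0.11 and not called (adjusted p = 0.234). Derl3, an isoform best known from secretory cells, had 0.588, 0.689, 0.334 and 0.311 CPM in fasted KO livers, against 1.06, 2.91, 0.625 and 2.43 CPM in fasted WT livers. The fed levels were 3.43, 11.8, 3.46 and 2.47 CPM in KO and 4.11, 5.96, 6.49 and 3.53 CPM in WT. Fasted WT replicates 2 and 4, the ones with most pancreatic transcripts, were the highest fasted livers, and the rest of the fasted livers were at or below 1.06 CPM. The plasma cell markers, higher in the same 2 replicates, summed to 12.9 to 22.5 CPM in fasted KO and 11.8 to 36.4 CPM in fasted WT livers, against 16.98 to 29.5 CPM in fed KO and 29.8 to 43.4 CPM in fed WT livers. Tnfrsf17 was at 0 in 15 of the 16 libraries; the part of other cells in the Derl3 values was not tested.

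Derl3 fell with fasting by 3.46 on the log2 scale in KO livers (SE 0.62, edgeR adjusted p = 0.000554) and by 1.54 in WT livers (SE 0.53, adjusted p = 0.0386). The WT call was lost without fasted KO replicate 1, fasted WT replicate 1 or 3, or fed WT replicate 1, 2 or 3 (adjusted p = 0.0526 to 0.104) and with no filter on low counts (0.0778), and the change was −2.59 without fasted WT replicates 2 and 4 (adjusted p = 0.0161). Between fasted genotypes the difference of −1.84 ± 0.69 was not called (adjusted p = 0.0622) and was −0.79 without those replicates (adjusted p = 0.574). It was called without fasted WT replicate 3 or fed KO replicate 2, by the DESeq2 Wald test, without robust estimation, with the replicate block and with the 8 fasted libraries alone, at an adjusted p of 0.00688 to 0.0352.

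Edem1 and Edem2 help to select misfolded glycoproteins for degradation by trimming mannose. Edem1 (ENSMUSG00000030104, chromosome 6, 108828641 to 108859356, forward strand) had 86.9, 88.1, 75.0 and 69.8 CPM in fasted KO livers, against 128, 119, 103 and 131 CPM in fasted WT livers. In fed livers it had 141, 160.1, 142 and 145 CPM in KO and 210.5, 248, 188 and 208 CPM in WT. The 4 groups did not overlap, and the genotype difference was much the same in both states at −0.59 ± 0.10 fasted and −0.54 ± 0.10 fed (edgeR adjusted p = 0.000183 and 0.000387); the fasted one was −0.53 without fasted WT replicates 2 and 4. Edem2 had 28.4, 32.4, 25.5 and 24.4 CPM in fasted KO livers and 33.4, 34.0, 27.6 and 35.8 CPM in fasted WT livers, with 49.2, 52.8, 47.6 and 53.9 CPM in fed KO livers and 64.7, 64.7, 71.6 and 72.2 CPM in fed WT livers. For Edem2 the genotypes were separate in the fed state (−0.43 ± 0.09, adjusted p = 0.0016) and overlapped in the fasted state (−0.24 ± 0.09, adjusted p = 0.0581). With library totals the fed difference was −0.21 and not called (adjusted p = 0.0759). The fasted one was called with DESeq2 size factors and by the DESeq2 Wald test (0.0434 and 0.0417) and was −0.14 without fasted WT replicates 2 and 4.

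Herpud1, a membrane protein that helps to assemble the ERAD complex around the ligase HRD1 (Syvn1), had 396, 426, 236 and 319.7 CPM in fasted KO livers, against 232, 399, 199 and 458 CPM in fasted WT livers. In fed livers it had 332, 470.2, 392 and 439.6 CPM in KO and 381, 469.5, 543 and 575 CPM in WT. All groups overlapped, and within fasted WT replicates 2 and 4 were far above the other replicates. The fasted genotype difference was 0.10 ± 0.26 (edgeR adjusted p = 0.819) and 0.68 ± 0.22 without these 2 replicates (adjusted p = 0.0413). With fasting in WT livers it changed by −0.61 ± 0.26 (adjusted p = 0.0836), and by −1.19 ± 0.23 without them (adjusted p = 0.00144); it was also called without fasted WT replicate 4 alone (adjusted p = 0.0221) and with the replicate block (0.0348). Syvn1 and its partner Sel1l were lower after fasting in both genotypes (Syvn1 −1.56 in KO and −1.35 in WT, Sel1l −0.58 and −0.50) and were not called between genotypes.

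Of the 9 translocation genes 8 were lower after fasting in KO and 9 in WT livers, against 20.3% and 18.3% of all genes. Between genotypes 4 were lower in the fasted state, against 14.5% of all genes. In the fed state 2 were lower and 1 higher, against 16.9% and 14%, so the fed counts are close to the background. Sec61b (ENSMUSG00000053317, chromosome 4, 47474658 to 47483242, forward strand), a small subunit of the channel, had 11.4, 14.1, 10.7 and 10.3 CPM in fasted KO livers, against 32.3, 38.3, 35.4 and 37.0 CPM in fed KO livers. In WT livers it had 12.2, 14.6, 13.3 and 15.0 CPM fasted, against 36.5, 37.2, 33.3 and 34.96 CPM fed. The fasted livers were all at or below 15.0 CPM and the fed livers all at or above 32.3 CPM, with a change of −1.62 ± 0.10 in KO and −1.37 ± 0.10 in WT livers (edgeR adjusted p = 7.42e-10 and 4.97e-09). Sec61a1, the pore-forming subunit, had 103, 109.6, 94.7 and 108 CPM in fasted KO livers, against 203, 227, 222 and 209.7 CPM in fed KO livers, and 99.6, 110.3, 99.1 and 117 CPM in fasted WT livers, against 200.3, 233, 199 and 213 CPM in fed WT livers. Fasted levels of Sec61a1 were far below the fed ones in each genotype (−1.05 ± 0.07 in KO, −0.99 ± 0.07 in WT livers), and the genotypes overlapped in each state (fasted −0.03 ± 0.07, fed 0.03 ± 0.07).

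Sec61g, the third subunit, was lower after fasting (−0.82 ± 0.27 in KO, −1.05 ± 0.27 in WT livers) at 0.527 to 0.797 CPM in fasted KO and 0.568 to 1.17 CPM in fasted WT livers, against 0.971 to 1.34 CPM in fed KO and 1.08 to 2.18 CPM in fed WT livers. At this depth its KO call was lost without fasted KO replicate 2 or fed KO replicate 2 (edgeR adjusted p = 0.0511 to 0.0593), and its WT call without fasted WT replicates 2 and 4 (adjusted p = 0.0773). The TRAP subunits Ssr1 to Ssr4, which sit beside the channel, were all lower after fasting in both genotypes, by −0.51 to −1.05 in KO and by −0.37 to −0.92 in WT livers. Ssr1 had 44.99, 50.8, 47.9 and 51.9 CPM in fasted KO livers and 63.1, 59.1, 56.7 and 53.3 CPM in fasted WT livers, with 87.2, 94.99, 91.3 and 101 CPM in fed KO livers and 112, 119, 103 and 104 CPM in fed WT livers. The 4 groups of Ssr1 did not overlap, with genotype differences of −0.25 ± 0.07 fasted and −0.23 ± 0.07 fed (adjusted p = 0.0166 and 0.0245). The fasted call was lost without fasted WT replicate 1 (adjusted p = 0.0602) and the fed call without fed KO replicate 1 or 3 or fed WT replicate 1 or 2 (0.0553 to 0.0836) and with the 8 fed libraries alone (0.0533). With library totals neither was called (−0.06 fasted, −0.00 fed, adjusted p = 0.554 and 0.974).

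Within TRAP the genotype differences were not alike. Ssr4 was lower in KO livers in both states (−0.44 ± 0.10 fasted, −0.30 ± 0.09 fed), Ssr3 was lower in the fasted state (−0.33 ± 0.08), and Ssr2 was higher in the fed state (0.22 ± 0.08, edgeR adjusted p = 0.039). The fed call of Ssr4 was lost without fed KO replicate 1 or fed WT replicate 2 (adjusted p = 0.0726 to 0.0755), and that of Ssr2 without fed KO replicate 2 or 3 or any 1 of the 4 fed WT replicates (0.0546 to 0.113) and with no filter on low counts (0.0848). With library totals the fed difference of Ssr4 was −0.08 and the fasted one of Ssr3 −0.14, and neither was called (adjusted p = 0.482 and 0.106). Of the signal peptidase subunits, Spcs2 had 39.1, 39.7, 36.5 and 37.6 CPM in fasted KO livers and 44.5, 47.1, 44.96 and 50.9 CPM in fasted WT livers, with 77.3, 94.1, 79.3 and 76.0 CPM in fed KO livers and 90.8, 96.5, 82.6 and 87.7 CPM in fed WT livers. Fasted KO lay below fasted WT without overlap (−0.29 ± 0.08, adjusted p = 0.00687, −0.23 with an adjusted p of 0.0876 without fasted WT replicates 2 and 4, and −0.11 with one of 0.282 with library totals), and fasting lowered Spcs2 by −1.10 in KO and −0.93 in WT livers. Spcs1 moved little, by −0.15 ± 0.07 in KO (not called) and −0.19 ± 0.07 in WT livers (adjusted p = 0.0379). The WT call of Spcs1 was lost without fasted KO replicate 1, fasted WT replicate 2, 3 or 4, or fed WT replicate 1 or 2 (adjusted p = 0.0695 to 0.128), without fasted WT replicates 2 and 4 (0.198), with DESeq2 size factors (0.0561), with the 8 WT libraries alone (0.0823) and by the DESeq2 Wald test (0.0502).

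Whether the genotype effect differed between the fasted and the fed state was tested as an interaction. The genotype effect was more negative in the fasted state for Calr (−0.82 ± 0.15, edgeR adjusted p = 0.0116), Pdia3 (−0.66 ± 0.13, adjusted p = 0.0164) and Pdia4 (−0.75 ± 0.16, adjusted p = 0.0244). These were 3 of the 35 genes lower and 0 higher, against 0.633% and 1.07% of all genes. At an unadjusted p under 0.05 by edgeR's test there were 13 lower and 1 higher, against 2371 of 13905 genes in either direction. The DESeq2 Wald test called 6 lower and 0 higher, and its share over all genes is not given here. The median of the difference was −0.20 over the 35 genes, −0.50 over the chaperones and −0.51 over the disulfide isomerases, beside 0.01 over all genes; without fasted WT replicates 2 and 4 these medians were −0.09, −0.24 and −0.41, beside 0.01. The values of the 3 genes were then −0.62, −0.55 and −0.62 (edgeR adjusted p = 0.0659, 0.0798 and 0.109). Thus 0 genes were called in either direction, where 0.23% of all genes were called lower and 0.273% higher. At an unadjusted p under 0.05 by the same test 6 of the 35 were lower and 2 higher, against 2003 of 13905 genes in either direction. The Pdia4 call was also lost without fasted KO replicate 3 or 4 or fasted WT replicate 2 (adjusted p = 0.0524 to 0.0613).

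The 11 genes with an ER stress element in the promoter window had a median log2 fold change with fasting of −1.38 in KO and −0.88 in WT livers, against −0.88 and −0.83 for the 18 genes with a window and no match. Most of the 11 are chaperones, and the medians of the chaperones with fasting were also −1.38 in KO and −0.88 in WT livers. Element and role thus cannot be told apart here. Between fasted genotypes the medians were −0.54 with a match and −0.27 without, and between fed genotypes −0.09 and −0.14. Without fasted WT replicates 2 and 4 the fasted genotype medians were −0.35 with a match and −0.32 without, and the medians with fasting in WT livers −1.14 and −0.89. Of the 11 genes whose elements are printed above, Dnajc3 and Herpud1 changed least with fasting in KO livers, at −0.55 and −0.25, and the others spanned −1.01 (Hsp90b1) to −3.46 (Derl3).

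A further 66 tested genes of the same pathways moved less uniformly. In fasted against fed livers 34 were lower and 9 higher in KO, against 20.3% and 21.1% of all genes. In WT livers 36 were lower and 6 higher, against 18.3% and 16.2%, and 31 lower and 4 higher without fasted WT replicates 2 and 4, against 14.9% and 13.9%. The lower ones were mainly 12 of 17 other folding enzymes in each genotype and 15 (KO) and 17 (WT) of 23 other translocation and glycosylation genes. They included Ero1lb, an oxidase that recharges disulfide isomerases (−1.60 in KO, −1.26 in WT), the prolyl isomerase Ppib (−1.13 and −1.09), the glycoprotein folding sensor Uggt1 (−0.76 and −0.94), and Ddost and Magt1 of the oligosaccharyltransferase (Ddost −1.14 and −1.11, Magt1 −1.35 and −0.87). Of 16 other ERAD genes 5 were lower and 3 higher in KO and 4 lower and 4 higher in WT livers, with Selenok at −0.90 and −0.80 and Ufd1 at 0.40 and 0.37. Creb3l2 and Creb3l3 encode ER-bound transcription factors; with fasting Creb3l2 changed by −1.48 in KO and −1.70 in WT livers, and Creb3l3 by 0.70 and 0.45.

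Between fasted genotypes 26 of these 66 genes were lower and 8 higher in KO livers, against 14.5% and 13.8% of all genes. The fasted counts without fasted WT replicates 2 and 4 were 16 lower and 6 higher, against 11.8% and 11.2%. Between fed genotypes 19 were lower and 5 higher, against 16.9% and 14%. The share of higher genes was thus near or below that of all genes. Lower in KO livers in both states were Tram1, a translocation helper (−0.79 ± 0.10 fasted, −0.48 ± 0.10 fed), the signal peptidase subunit Spcs3 (−0.62 ± 0.09 and −0.48 ± 0.09), Ero1lb (−0.83 ± 0.12 and −0.49 ± 0.11) and Uggt1 (−0.31 ± 0.08 and −0.49 ± 0.08). Without the 2 replicates the fasted values were −0.82 for Tram1, −0.68 for Spcs3, −0.69 for Ero1lb and −0.30 for Uggt1, all called. Of the 10 other UPR regulators 4 were higher and 1 lower in KO livers in each state, beside the same shares of all genes. In the fasted state without the 2 replicates 3 were higher and 0 lower, against 11.2% and 11.8% of all genes. At an unadjusted p under 0.05 by edgeR's test there were 3 of the 10, against 4883 of 13905 genes. The interaction test called Ero1l higher (0.56 ± 0.13) and Vcp and Magt1 lower (−0.45 ± 0.11 and −0.48 ± 0.11) among the 66, against 1.07% higher and 0.633% lower among all genes. Without fasted WT replicates 2 and 4 edgeR's test called 0 of them, against 0.273% higher and 0.23% lower. At an unadjusted p under 0.05 there were then 10 of the 66, close to the 2003 of 13905 genes.

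The PERK side of the UPR ends in ATF4 and CHOP, the transcription factor encoded by Ddit3. Ddit3 had 24.5 to 54.9 CPM in fasted KO livers, against 2.92 to 6.30 CPM in fasted WT livers, and 7.75 to 17.4 CPM in fed KO livers, against 1.88 to 3.99 CPM in fed WT livers. KO and WT did not overlap in either state, with differences of 3.24 ± 0.37 fasted and 1.78 ± 0.37 fed (edgeR adjusted p = 2.9e-05 and 0.00283). Atf4 was higher by 0.73 ± 0.10 and 0.43 ± 0.10, and Trib3, a pseudokinase gene known as a target of both factors, by 4.34 ± 0.40 and 3.12 ± 0.39. The fasted differences without fasted WT replicates 2 and 4 were 3.61 for Ddit3, 0.81 for Atf4 and 4.12 for Trib3, all called. Eif2ak3, which encodes PERK itself, had 0.08 ± 0.14 fasted (adjusted p = 0.72) and 0.40 ± 0.14 fed (adjusted p = 0.032). Ppp1r15a, from the same list of other UPR regulators, overlapped between genotypes in both states. It had 15.7 to 21.1 CPM in fasted KO and 13.8 to 17.2 CPM in fasted WT livers. In the fed state it had 16.7 to 23.97 CPM in KO and 13.8 to 17.1 CPM in WT livers. Whether PERK or ER stress raised Ddit3, Atf4 and Trib3 was not tested.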

How the data were processed

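The deposited table holds raw counts, whole numbers of reads per gene, with no normalization by the authors. Libraries were stranded poly(A) libraries, per the labels' protocols. The submitters' processing notes name cutadapt 1.8, STAR 2.5.3a, HTSeq 0.9.1 and the build GRCm38, with no annotation release and no strand setting for the counting. Groups came from the labels. The 5 summary lines that name no gene were left out.

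Genes with low counts were removed with filterByExpr of edgeR 4.0.16 (R 4.3.3), and all 16 libraries (19.6 to 27.3 M gene reads) entered 1 model with a coefficient per group, TMM scaling and the robust quasi-likelihood F test. CPM were computed here from the deposited counts. Log2 fold changes are edgeR estimates, and each SE is their size over the root of the F statistic. A gene is called at a Benjamini-Hochberg adjusted p under 0.05 over 13905 genes. The p-values measure the spread between these samples. The procedure was tested on simulated data. Replicate numbers were treated as names: deviations of same-numbered libraries correlated at −0.1742 to 0.2512, over 0.1 in 3 of 24 pairs.

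Alternatives were DESeq2 size factors, library totals, the Wald test of DESeq2 1.42.0, all genes kept without a count filter, a fit that is not robust, the 8 libraries compared alone, a threshold of 0.01, the replicate block, each library left out, and fasted WT replicates 2 and 4 left out. The 35 genes and all lists were chosen with earlier results of these data known. Per-library values are given for the 4 called genes with the smallest p in each comparison of 2 groups, for Hspa5, Xbp1, Herpud1, Sdf2l1, Creld2, Derl3 and Dnajb9, and for genes called in the interaction; Ern1 was added after its values were seen. From the wider lists up to 3 called genes per list and comparison were eligible, plus Atf4, Ddit3 and Eif2ak3. Trib3, Ppp1r15a and the genes repeated across states were named after their values were seen. Positions are from GENCODE M21 and promoters from RefSeq, matched by symbol.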

Additional observations from a re-analysis of the deposited data

Results flagged for a closer look

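Within groups, 5 of 140 gene and group combinations had a single library apart from the other 3, where chance gives about 1 in 20. Fed WT replicate 2 stood apart for Dnajc3 (382.79 CPM, against 284.74 to 300.61 CPM in the others) and for Creld2 (89.95 CPM, against 59.118 to 61.191 CPM). Fed KO replicate 2 stood apart for Derl3 at 11.759 CPM, against 2.4748 to 3.4552 CPM. Xbp1 was low in fasted KO replicate 1 at 119.07 CPM, against 126.98 to 127.32 CPM in the others, which lay close together. Sec61g was high in fasted WT replicate 1 at 1.1676 CPM, against 0.56846 to 0.64584 CPM, a range of few reads.

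The genotype effect differed between the fasted and the fed state, by the interaction test, for Calr (−0.8173 on the log2 scale), Pdia4 (−0.7452) and Pdia3 (−0.6556). The sizes without fasted WT replicates 2 and 4 were −0.62 for Calr, −0.62 for Pdia4 and −0.55 for Pdia3, and 0 of the 3 was then called by edgeR's test at the adjusted threshold. At an unadjusted p under 0.05 by that test 6 of the 35 genes were lower and 2 higher, against 2003 of 13905 genes in either direction. The part of the pancreatic transcripts of these replicates in the differences was not tested.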

How the results depend on the processing

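Of the recomputed counts of called genes 237 stayed within 1.5 times the main count and 11 did not, and 0 called values of named genes changed sign. Shares of all genes called are given above for the main fit and without fasted WT replicates 2 and 4, and not for the other alternatives. Scaling by library totals gave 9 genes higher and 1 lower in fed KO against fed WT livers. At an adjusted p under 0.01 the fed comparison had 3 genes lower and the interaction 0. The interaction had 1 gene higher with no filter on low counts, 6 lower by the DESeq2 Wald test, and 0 lower without fasted WT replicates 2 and 4. With the replicate block it had 1 higher and 4 lower; the block gave 3 higher and 21 lower in the fasted and 3 and 7 in the fed genotype comparison, and 31 (KO) and 34 (WT) genes lower with fasting, although the numbers do not pair the libraries. Leaving out 1 library at a time gave 3 higher and 15 to 20 lower between fasted genotypes, 2 to 3 higher and 3 to 7 lower between fed genotypes (3 without fed WT replicate 2), 0 to 1 higher and 30 to 31 lower with fasting in KO livers, 29 to 33 lower with fasting in WT livers, and 0 to 1 higher (1 without fed WT replicate 1) and 2 to 4 lower in the interaction. For single named genes 51 calls were lost and 16 gained over all alternatives. The cause of these moves was not tested. Depth limits Sec61g and Derl3, with as few as 11 and 8 reads in a library.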
